A study of Mus musculus with 6 samples.

Results

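The Hox genes of the 4 mouse clusters and their Meis and Pbx cofactors were followed in the mouse embryonic stem cell line J1 after knockdown of subunits of the THO complex. A gene was a member if its name on the array was Hoxa, Hoxb, Hoxc or Hoxd with a number, or Meis or Pbx with a number, and it was represented by its brightest probe over the 6 arrays. This gave 43 of the 27962 gene names on the array: 38 Hox genes (11 of cluster A, 10 of B, 8 of C and 9 of D), Meis1 and 4 Pbx genes. Meis2 and Meis3 were printed on the array under the older names Mrg1 and Mrg2, so the rule did not take them; their values are given beside the members. The 3 groups held 2 arrays each: cells transfected with a non-targeting siRNA (NT), with an siRNA against Thoc2, or with an siRNA against Thoc5. In every group the cells were kept in ESGRO medium, moved to M10 medium for transfection, and harvested for total RNA 96 hours after it. The labels do not say whether replicates came from separate cultures, so p-values measure only the spread between arrays, which may be technical.

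Hox genes encode homeodomain transcription factors that set position along the body axis, and they lie in 4 clusters in which gene order follows the order of expression along the body. Low paralogue numbers act in the hindbrain and neck, middle numbers in the trunk, and high numbers in the lumbar region, limbs and tail. Meis and Pbx proteins are homeodomain proteins of the TALE class that bind DNA together with Hox proteins and raise their sequence specificity. In embryonic stem cells the Hox clusters are known as bivalent chromatin held back by Polycomb complexes, and retinoic acid opens them from low to high numbers. Thoc2 and Thoc5 are subunits of THO, which joins new mRNA and helps to pass it to the nuclear export machinery; the study asked how THO acts on stem cell self-renewal. The arrays measured the mRNA of whole cells and not its export.

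A level is the log2 processed signal of a probe minus the 75th percentile of its array, so negative values are common and levels of different probes cannot be compared. Each target was lower under its own siRNA, Thoc2 at 55% and Thoc5 at 41.4% of NT (limma adjusted p 0.304 and 0.13). The dimmest array was Thoc5 siRNA replicate 1, with a 75th percentile of 306.1 against 715.7 to 905 on the others, and replicate 1 of Thoc2 siRNA had 880 outlier spots against 63 to 155. That Thoc2 array was also scanned on another day than the other 5. All 9 embryonic stem cell markers on the array, among them Pou5f1, Sox2 and Nanog, were well above background on all 6 arrays; Fgf4, the other marker of that list, had no probe by that name. The log2 difference from NT of all 9 lay below 0 with both siRNAs, with a median of -0.30 with Thoc2 and -0.36 with Thoc5 siRNA beside 0.06 and -0.09 over all genes tested. At an unadjusted p under 0.05 none of the 9 was lower with Thoc2 siRNA (6.5% of all genes tested) and 3 were with Thoc5 siRNA (12% of all genes), namely Pou5f1 (-0.88 ± 0.22), Sox2 (-0.52 ± 0.19) and Nanog (-0.50 ± 0.16); 0 passed after adjustment. The summed log2 level of 10 endoderm markers differed between the NT replicates (3.47 and 0.20), and lay at 1.62 and 2.02 with Thoc2 siRNA and at 3.76 and 1.85 with Thoc5 siRNA; Ttr was on no array and Afp on 1. That of 10 fibroblast and feeder markers was 2.90 and 2.95 (NT), 1.96 and 2.19 (Thoc2 siRNA) and 2.06 and 1.99 (Thoc5 siRNA), with 5 of the 10 on all 6 arrays. At an unadjusted p under 0.05, 3 of the 7 tested were lower with each siRNA (6.5% and 12% of all genes). With Thoc2 siRNA 4 of the 7 lay below 0, and with Thoc5 siRNA 6 did. For 10 trophoblast markers the sum was 4.02 and 3.96, 3.58 and 3.54, and 4.42 and 4.62, with 8 on all 6 arrays. Such sums are weighted to the brightest genes. Of the 9 trophoblast markers tested, 4 were higher and 2 lower with Thoc2 siRNA at the same threshold. With Thoc5 siRNA 6 were higher and 0 lower (8.03%, 6.5%, 7.39% and 12% of all genes). Gata3 stood at 2.39 ± 0.17 and 1.85 ± 0.17 above NT and Tead4 at 0.80 ± 0.18 and 1.53 ± 0.18 with Thoc2 and Thoc5 siRNA, and 0 of these lists' genes passed after adjustment. The part of these cell states in the results below was not tested.

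Most members were dim. Detection here means the scanner software's flag for a signal well above background. Of the 43 members 13 (30.2%) were detected on all 6 arrays, 24 on 1 to 5 arrays and 6 on none, while 54% of all genes on the array were detected on all 6. Among the 13 were Hoxa3, Hoxa7, Hoxb6, Hoxb7, Hoxb9, Hoxb13, Hoxc4, Hoxc5, Hoxd13, Pbx2, Pbx3 and Pbx4. The 6 on no array were Hoxa5, Hoxb1, Hoxc8, Hoxd8, Hoxd9 and Hoxd11, whose levels lay between -8.45 and -5.98. A share of 14% on no array among members stood beside 14.3% among all genes.

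Detected genes were spread over the clusters. Of Hox genes numbered 1 to 4, 3 of 12 were detected on all 6 arrays, of those numbered 5 to 8 it was 4 of 11, and of those numbered 9 to 13 it was 3 of 15. By cluster, 3 of 11 genes of A, 4 of 10 of B, 2 of 8 of C and 1 of 9 of D were on all 6 arrays. Genes within a cluster differed. Hoxb1, a hindbrain gene that retinoic acid induces early, was on no array, while Hoxb13, at the other end of the cluster and used in the tail, was on all of them. Of the Pbx genes, Pbx2, Pbx3 and Pbx4 were on all 6 arrays.

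**Figure D1:**
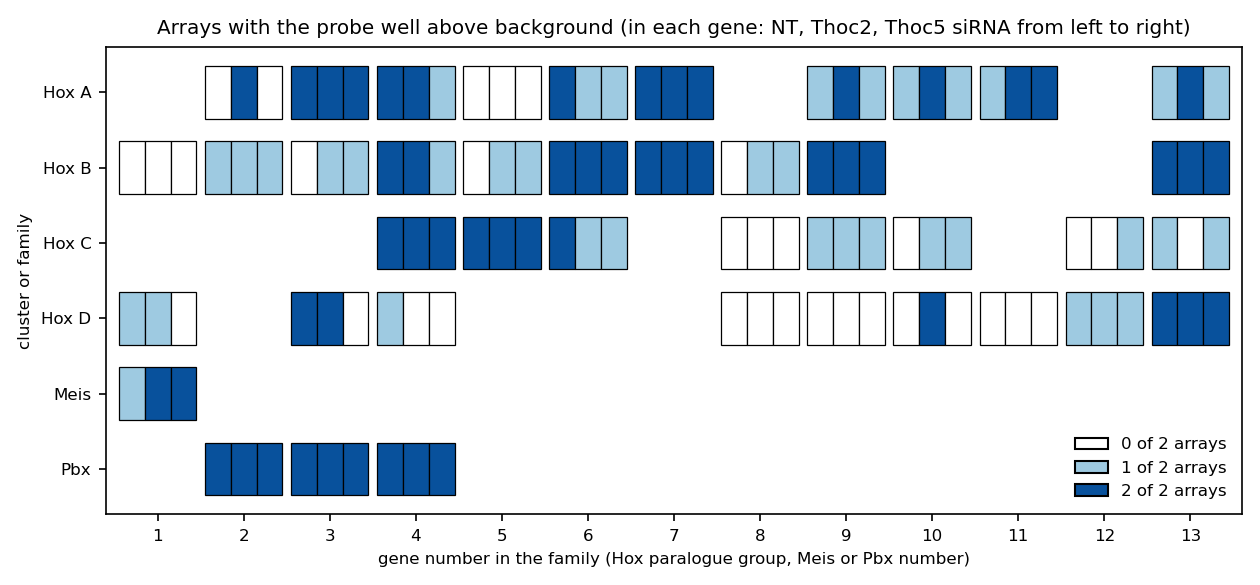
Number of arrays (0, 1 or 2) on which each member was well above background, drawn by cluster or family (rows) and gene number (columns), with NT, Thoc2 and Thoc5 siRNA from left to right in each gene. The map draws 41 of the 43 members; in cluster D only Hoxd13 is filled throughout.

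Cluster D was the cluster least often detected with NT and with Thoc5 siRNA. On the NT arrays (replicates 1 and 2), A showed 8 and 6 of 11 genes, B 6 and 5 of 10 and C 4 and 4 of 8. Of the 9 genes of D, 4 and 3 were detected on the NT arrays and 5 and 3 on the Thoc2 siRNA arrays. On the Thoc5 siRNA arrays 1 and 2 were detected. In cluster C, by contrast, the second Thoc5 siRNA array showed 7 of 8 genes, more than any other array (2 to 4). Over all members the counts were 26 and 23 with NT, 33 and 25 with Thoc2 and 16 and 31 with Thoc5 siRNA. The share of all genes detected was likewise highest on the first Thoc2 siRNA array and lowest on the first Thoc5 siRNA array, with 68.95% and 68.39%, 79.04% and 70.54%, and 56.57% and 73.24%. The replicates of Thoc5 siRNA lay farthest apart, and no test was made of these counts.

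**Figure D2:**
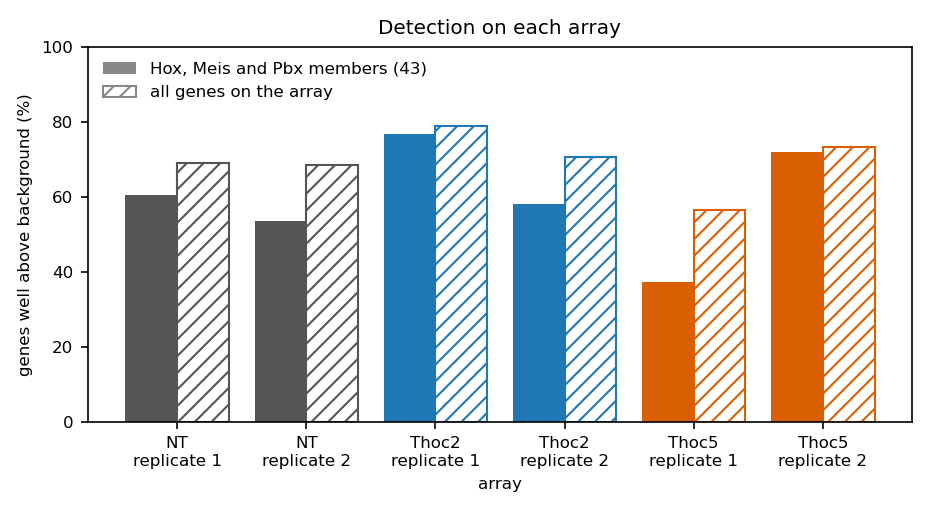
Percentage of the 43 members (filled bars) and of all genes on the array (hatched bars) well above background, on each of the 6 arrays. Members lie below all genes on every array, and the dimmest array, Thoc5 siRNA replicate 1, is the lowest for both (16 members; 56.57% of all genes).

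Tests were limited to the 26 members well above background on both arrays of at least 1 group; the other 17 had levels between -8.45 and -2.43. A member kept only through 1 group was picked by its brightness there, so the filter favours members that are higher in that group. Of the 26, 5 were kept only through Thoc2 siRNA (Hoxa2, Hoxa9, Hoxa10, Hoxa13 and Hoxd10), 2 only through NT (Hoxa6 and Hoxc6), and 2 through both THO siRNAs but not NT (Hoxa11 and Meis1). Counts and medians over the 26 therefore describe these genes and not all members.

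With Thoc2 siRNA, Hoxa2, Hoxa9 and Hoxd10, of clusters A and D, and Meis1 were higher at an unadjusted p under 0.05, and no member passed the test over all genes. Hoxa2, which patterns the hindbrain and the second pharyngeal arch, and Hoxd10, a gene of lumbar motor neurons and limbs, were well above background on both Thoc2 siRNA arrays and on no NT or Thoc5 siRNA array. At an unadjusted p under 0.05, 4 of the 26 tested members were higher (15.4%; 8.03% of all 19478 genes tested) and 0 were lower (6.5% of all genes). In the same test the adjusted p of limma passed 0.05 for 0 members and for 0% of all genes; the smallest over members was 0.232. None of the 4 was well above background on both NT arrays, and 3 of them, Hoxa2, Hoxa9 and Hoxd10, were tested only because they were bright with Thoc2 siRNA. Nothing is read from their number against the share of all genes. Of the 19 tested members on both NT arrays, 0 were higher. Those 19 were picked by their brightness with NT, and the share of all such genes was not counted. Nothing is read from that 0 either.

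Hoxa2 had levels of -8.04 and -8.29 (NT), -5.63 and -3.33 (Thoc2 siRNA) and -6.94 and -7.40 (Thoc5 siRNA). Both Thoc2 siRNA arrays lay above the other 4, and they stood 2.30 apart from each other. With NT siRNA the gene has only an upper bound, so its difference is given as at least 3.33-fold higher with Thoc2 siRNA (fitted log2 difference 3.69 ± 0.80, SE of the limma fit here and below; adjusted p 0.232). For such a bound the mean of the bright group was set against the floor of each dim array, which is the lowest detected level there or, if higher, the level of the probe itself. Both NT values and the value of Thoc5 siRNA replicate 1 are substitutes that the scanner software gives for a signal too low to use. Leaving out Thoc2 replicate 1 gave a fitted difference of 4.84 and leaving out replicate 2 gave 2.54.

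Hoxd10 had levels of -5.99 and -6.18 (NT), -4.34 and -5.08 (Thoc2 siRNA) and -6.22 and -6.06 (Thoc5 siRNA). Both Thoc2 siRNA arrays lay above the other 4, and the group lay at least 2.59-fold above NT (fitted log2 difference 1.37 ± 0.29, adjusted p 0.232). Within the slide that held an array of both groups the fitted difference was 0.91. Hoxd13, at the end of the same cluster and a gene of the digits and genital tubercle, had levels of -3.52 and -3.09, -2.49 and -2.97, and -2.90 and -3.05 in the same order. It was detected everywhere, and its difference of 0.57 ± 0.26 with Thoc2 siRNA had an adjusted p of 0.398.

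Hoxa9, a posterior gene that also keeps blood progenitors dividing, had levels of -5.13 and -6.46 (NT), -3.96 and -4.71 (Thoc2 siRNA) and -4.92 and -4.98 (Thoc5 siRNA). It was well above background on 1 of 2 NT arrays and on both Thoc2 siRNA arrays. The difference was 1.47 ± 0.53 with Thoc2 siRNA (adjusted p 0.33) and 0.85 ± 0.53 with Thoc5 siRNA. It moved with the NT arrays: without NT replicate 2, on which the probe was not well above background, the difference with Thoc2 siRNA was 0.80. Within the shared slide it was 0.42.

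Over the 26 members the median log2 difference with Thoc2 siRNA was 0.38, beside 0.06 over all genes tested, and 18 members lay above 0 (55.7% of all genes did). Groups did not overlap for 11 members that were higher (25.6% of all genes) and for 1 that was lower (20.6%). Among the 11 were Hoxa2, Hoxa9, Hoxa13 and Hoxd10, tested only through Thoc2 siRNA, and Meis1, tested through both THO siRNAs but not NT. Nothing is read from these counts or this median against those of all genes. The 13 members detected on every array gave 0 with an unadjusted p under 0.05 when only such genes were tested (9.51% of all such genes were higher and 9.31% lower). The counts moved with single arrays. Without Thoc2 replicate 1 there were 2 higher members and 1 lower (4.78% and 4.65% of all genes in the same fit), without NT replicate 2 there were 2 and 0 (6.84% and 4.33%), and without Thoc2 replicate 2 there were 6 and 1 (7.21% and 7.1%). Without either Thoc5 replicate there were 2 and 0 (6.21% and 4.62%). Replicate 1 of Thoc2 siRNA was over 1 log2 unit above replicate 2 for 14 of the 43 members, and below it by as much for 2. With quantile normalization 1 member was higher and 1 lower (all genes, 1105 and 1704, against 1564 and 1267 as scaled here), and with normexp background correction 0 and 0 (all genes, 544 and 291).

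With Thoc5 siRNA, members on both sides of NT reached an unadjusted p under 0.05. Hoxa3, a gene of the third pharyngeal arch from which thymus and parathyroid form, Hoxb6, a trunk gene, and Meis1 were higher, while Hoxd3, which shapes the first neck vertebrae, and Hoxb7, another trunk gene, were lower. None passed the test over all genes. At an unadjusted p under 0.05, 3 of 26 were higher (7.39% of all 19479 genes) and 2 were lower (12% of all genes). Meis1 was tested through both THO siRNAs but not NT. Hoxd3 was tested through NT and Thoc2 siRNA and was not well above background with Thoc5 siRNA. Nothing is read from these counts against the shares of all genes. The adjusted p of limma passed 0.05 for 0 members and 0% of all genes, and the smallest value, 0.101, belonged to Hoxd3 and was shared with genes outside the clusters.

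Hoxd3 had levels of -4.62 and -5.14 (NT), -4.60 and -4.28 (Thoc2 siRNA) and -6.92 and -6.54 (Thoc5 siRNA). The Thoc5 siRNA arrays lay below the other 4 and neither was well above background. On the first of them the value is the software's substitute for too low a signal. Hoxd3 was at least 1.64-fold lower with Thoc5 siRNA than with NT (fitted log2 difference -1.85 ± 0.27, adjusted p 0.101). Leaving out the dim Thoc5 replicate 1 gave -1.67, and the shared slide gave -1.41. With normexp background correction, which handles dim spots in another way, the sign turned to 0.85. A second Hoxd3 probe was detected on no array.

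Hoxa3 was detected on all 6 arrays, with levels of -2.62 and -2.63 (NT), -2.38 and -2.10 (Thoc2 siRNA) and -1.64 and -1.89 (Thoc5 siRNA). The groups did not overlap, and both THO siRNA groups lay above NT. The log2 difference was 0.86 ± 0.18 with Thoc5 siRNA (adjusted p 0.127) and 0.38 ± 0.18 with Thoc2 siRNA (adjusted p 0.409). Over 18 other settings the Thoc5 difference stayed between 0.74 and 1.02. The gene's other probe was detected on no array.

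Hoxb6 had levels of -1.12 and -1.56 (NT), -1.33 and -0.84 (Thoc2 siRNA) and -0.41 and -0.20 (Thoc5 siRNA). Both Thoc5 siRNA arrays lay above the other 4. The log2 difference from NT was 1.04 ± 0.27 (adjusted p 0.157), and 0.82 to 1.37 over the other settings. The gene's 2 probes behaved differently: the dimmer one had levels of -4.37 and -6.83, -6.19 and -3.98, and -5.27 and -4.95, and was detected on 3 arrays. The first 30 bases of both probes show that they read different stretches of the locus, with coordinates in build mm7 as the array files give them; the files do not say in which exon either lies.
Hoxb6 probe A_52_P648750, chr11:96408006-96408065, plus strand: ggtgctatttgacaattcctgcctctgcca
Hoxb6 probe A_51_P232207, chr11:96410288-96410347, plus strand: tcgagtctcatttcgtccatgtcccccgtg

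Hoxb7 was detected on all arrays, at -2.47 and -3.01 (NT), -3.44 and -2.68 (Thoc2 siRNA) and -3.86 and -3.68 (Thoc5 siRNA). The Thoc5 siRNA arrays were the lowest 2, with a log2 difference of -1.03 ± 0.34 (adjusted p 0.219). It stood at -0.76 without NT replicate 1 and turned to 0.21 with normexp. Hoxb6 and Hoxb7 are neighbours in the cluster, and their levels with Thoc5 siRNA lay on opposite sides of NT.

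Over the 26 members the median difference with Thoc5 siRNA was 0.04 (-0.09 over all genes), and 15 lay above 0 (43.2% of all genes). Groups did not overlap for 7 higher members (21.6% of all genes) and 3 lower ones (31.1%). Among the 7 were Meis1, tested through both THO siRNAs but not NT, and Hoxa2 and Hoxa9, tested only through Thoc2 siRNA. Hoxa2 was not well above background on any NT or Thoc5 siRNA array. Hoxd3, among the 3 lower, was not well above background with Thoc5 siRNA. Nothing is read from these counts or this median against those of all genes. Of the 13 members detected on every array, 2 were higher and 1 lower at an unadjusted p under 0.05 when only such genes were tested, beside 10.3% and 15.3% of all such genes. Without NT replicate 1 the counts were 6 higher and 1 lower (6.75% and 8.64% of all genes in the same fit), and without NT replicate 2 they were 1 and 2 (6.04% and 10.2%). Without Thoc5 replicate 2 they were 1 and 1 (4.04% and 7.35%), and without the dim Thoc5 replicate 1 they were 3 and 1 (4.29% and 6.55%). With normexp 1 member was higher and 0 lower (all genes, 514 and 473, against 1439 and 2347 as scaled here).

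**Figure D3:**
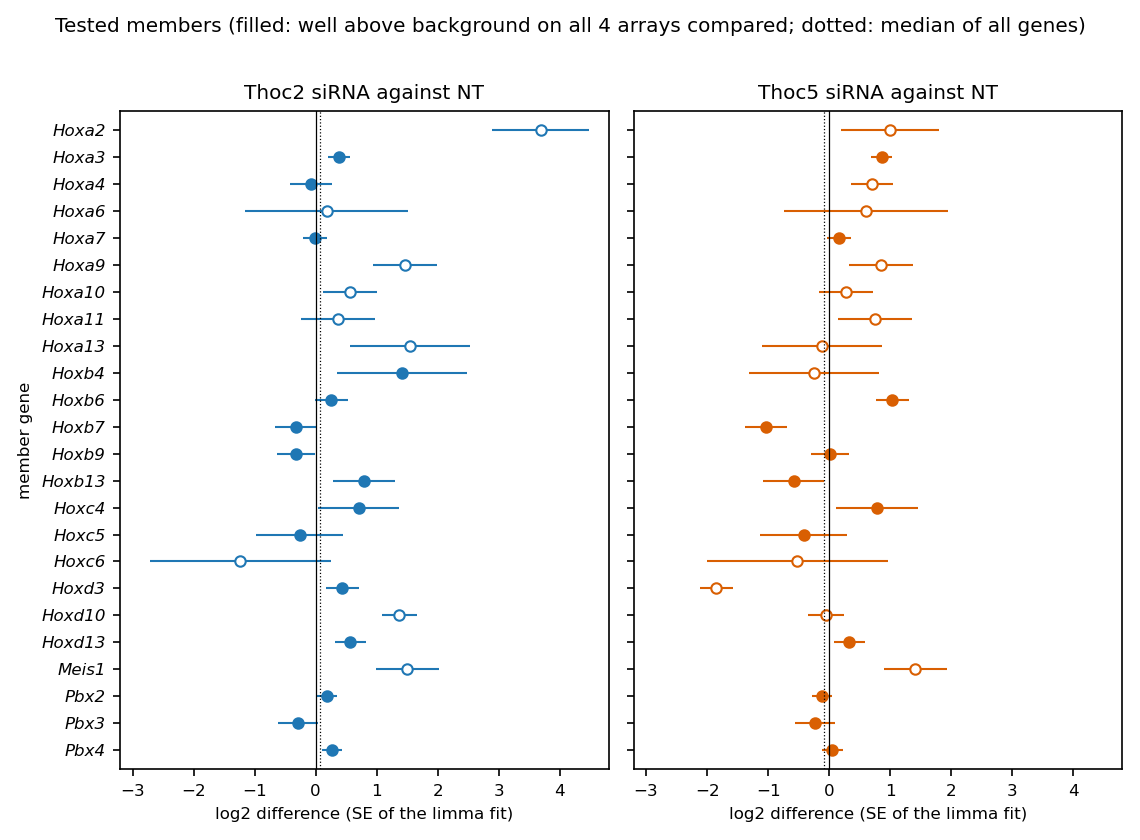
Log2 difference from NT of 24 of the 26 tested members with Thoc2 siRNA (left) and Thoc5 siRNA (right), with the SE of the limma fit; filled points were well above background on all 4 arrays compared, and the dotted line is the median of all genes tested (0.06 and -0.09). The 2 panels share the NT arrays. An open point is no exact difference where a whole group was not above background (Hoxa2 and Hoxd10 in both panels, Hoxd3 with Thoc5 siRNA); the filled points run from -0.32 (Hoxb9) to 1.42 (Hoxb4) with Thoc2 and from -1.03 (Hoxb7) to 1.04 (Hoxb6) with Thoc5 siRNA.

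Set directly against each other, the siRNAs differed at an unadjusted p under 0.05 for dim genes of clusters A and D and for 2 genes of cluster B, none past the test over all genes. Thoc5 against Thoc2 siRNA gave 1 member higher (2.19% of all genes tested) and 4 lower (6.96%) at an unadjusted p under 0.05, and the adjusted p passed for 0 members and 0% of all genes. Of the lower members, Hoxa2 and Hoxd10 were tested only because they were bright with Thoc2 siRNA. Hoxd3 was tested through NT and Thoc2 siRNA and was not well above background with Thoc5 siRNA. Nothing is read from the number of lower members against the share of all genes. Hoxd3 was at least 2.22-fold lower with Thoc5 than with Thoc2 siRNA (-2.29 ± 0.27, adjusted p 0.414), Hoxd10 at least 1.55-fold lower (-1.43 ± 0.29) and Hoxa2 at least 2.32-fold lower (-2.69 ± 0.80). The fitted difference of Hoxa2 was -3.84 without Thoc2 replicate 1 and -1.54 without Thoc2 replicate 2. Hoxb6 was the member higher with Thoc5 siRNA (0.78 ± 0.27), at 0.54 without Thoc2 replicate 1.

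Hoxb13 was the other lower member. It was detected on all arrays, at -3.24 and -4.0 (NT), -2.21 and -3.46 (Thoc2 siRNA) and -4.27 and -4.14 (Thoc5 siRNA). The Thoc5 siRNA arrays lay below the rest, and the first Thoc2 siRNA array lay above all others. The log2 difference between the siRNAs was -1.37 ± 0.51 (adjusted p 0.541), and -0.74 without Thoc2 replicate 1. Over the 26 members the median difference was -0.18 (-0.13 over all genes); it was 0.14 with quantile normalization, where 4 members were higher and 2 lower (all genes, 898 and 753, against 426 and 1356 as scaled here). Groups did not overlap for 5 higher (13% of all genes) and 8 lower members (32%), and 11 members lay above 0 (35.1% of all genes). Among the 8 were Hoxa2, Hoxa9 and Hoxd10, which were tested only through Thoc2 siRNA. Hoxd3, tested through NT and Thoc2 siRNA but not Thoc5 siRNA, was also among them. Nothing is read from these counts against the shares of all genes.

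Of the cofactors, Meis1 was higher with both siRNAs at an unadjusted p under 0.05. The brightest probes of Pbx2, Pbx3 and Pbx4 had no such p in any comparison. Meis1, which works with Hoxa9 in blood progenitors, had levels of -5.61 and -5.71 (NT), -3.46 and -4.85 (Thoc2 siRNA) and -3.95 and -4.54 (Thoc5 siRNA). All 4 siRNA arrays lay above both NT arrays, and the probe was detected on 5 arrays, all but the first NT array. The difference was 1.50 ± 0.52 with Thoc2 siRNA (adjusted p 0.32) and 1.41 ± 0.52 with Thoc5 siRNA (adjusted p 0.251). The former was 0.81 without Thoc2 replicate 1, 2.20 without replicate 2 and 0.76 within the shared slide; the latter ranged from 1.12 to 1.71. Another Meis1 probe was off with NT (-8.00 and -7.82) and detected on the first Thoc2 (-2.69) and the second Thoc5 siRNA array (-5.86). The 2 probes' first 30 bases are shown because their values differ.
Meis1 probe A_52_P26195, chr11:18833212-18833271, minus strand: gacaggaaggtctgatttgcaggattttta
Meis1 probe A_52_P670612, chr11:18963253-18963312, minus strand: gagaaggaggatcaaaatcagacagtgaag

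Meis2, a Meis gene that retinoic acid induces and that lies outside the rule, was detected on all 6 arrays by both of its probes. The brighter one had levels of -1.92 and -1.95 (NT), 0.08 and 0.28 (Thoc2 siRNA) and -0.48 and -0.98 (Thoc5 siRNA), and the 3 groups did not overlap. With Thoc5 siRNA the difference from NT was 1.21 ± 0.22 (adjusted p 0.114), and Thoc5 lay below Thoc2 siRNA by a log2 difference of -0.91 ± 0.22 (adjusted p 0.464). The other probe gave 1.94 ± 0.31 with Thoc2 and 1.30 ± 0.31 with Thoc5 siRNA, from levels of -2.54 and -1.86, -0.30 and -0.21, and -0.66 and -1.14. Over 18 other settings the Thoc5 difference of the brighter probe lay between 0.96 and 1.46, and over 19 the Thoc2 difference lay between 2.01 and 2.21. With an intensity trend and robust variances the Thoc5 difference passed over all genes (adjusted p 0.0445), where the adjusted p over all settings ran from 0.0445 to 0.658. Meis3 had levels of -3.89 and -4.27, -3.38 and -4.13, and -4.07 and -4.39, and the groups overlapped in both comparisons.

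Pbx2, Pbx3 and Pbx4, partners that Hox and Meis proteins share, were detected on all arrays. Pbx2 had levels of 2.72 and 2.99 (NT), 3.03 and 3.05 (Thoc2 siRNA) and 2.68 and 2.79 (Thoc5 siRNA), a difference of 0.18 ± 0.16 and -0.12 ± 0.16. A dimmer Pbx2 probe, also detected on all arrays, had levels of -1.48 and -1.41, -1.51 and -1.53, and -1.92 and -1.78. Its Thoc5 siRNA arrays lay below all the others, and its Thoc2 siRNA arrays lay below NT. Pbx4 had levels of -1.31 and -1.05, -0.85 and -0.98, and -1.17 and -1.09 (0.26 ± 0.17 and 0.05 ± 0.17), and Pbx3 had levels of -1.33 and -1.20, -1.22 and -1.91, and -1.22 and -1.78 (-0.30 ± 0.33 and -0.24 ± 0.33).

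**Figure D4:**
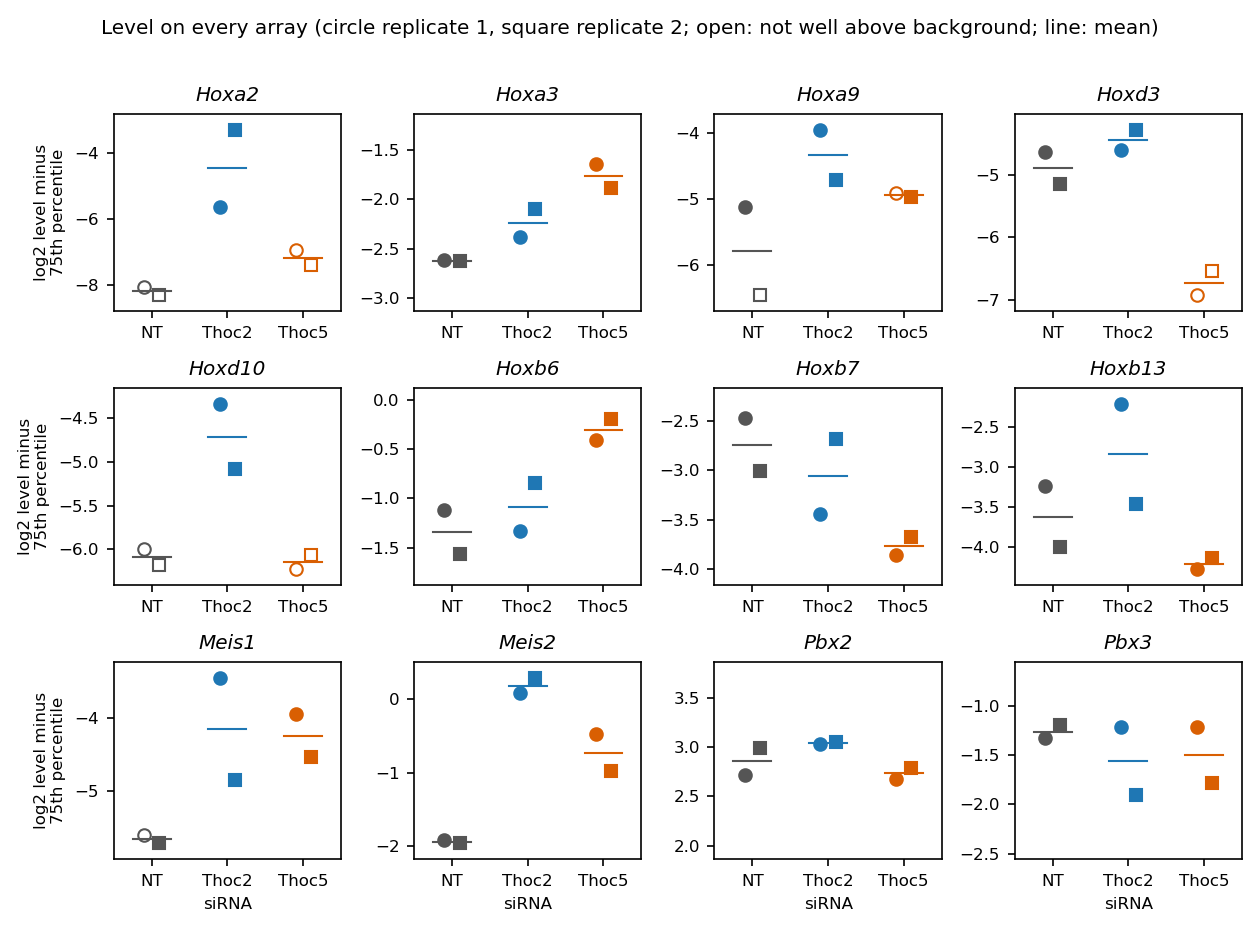
Level on every array of 8 Hox genes, Meis1, Meis2, Pbx2 and Pbx3 (log2 processed signal minus the array's 75th percentile; each panel has its own axis), with open symbols where the probe was not well above background and lines at the group means. Meis2 shows 3 separate groups (NT -1.92 and -1.95; Thoc2 0.08 and 0.28; Thoc5 -0.48 and -0.98), and the groups of Pbx3 overlap.

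Both siRNAs together against NT gave 4 members higher (8.79% of all genes) and 1 lower (10.4%) at an unadjusted p under 0.05. The higher ones were Hoxa3 (0.62 ± 0.16), Meis1 (1.46 ± 0.45), Hoxb6 (0.65 ± 0.23) and Hoxa2, and Hoxd3 was lower. No size is given for Hoxa2, which was above background only on the Thoc2 siRNA arrays and was tested only through them, or for Hoxd3, which was not above background on the Thoc5 siRNA arrays. Their adjusted p lay between 0.155 and 0.243, and 0 members and 0% of all genes passed 0.05. Over the 26 members the median was 0.39 (-0.01 over all genes), and 19 lay above 0 (49.3% of all genes). All 4 siRNA arrays lay above both NT arrays for 5 members (14% of all genes), namely Hoxa2, Hoxa3, Hoxa9, Hoxd13 and Meis1, and below them for 0 (16%). Of these, Hoxa2, Hoxa9 and Meis1 were tested through THO siRNA arrays and not through NT, so nothing is read from the number. These values reuse the arrays of the comparisons above. Without NT replicate 2 the counts were 0 higher and 1 lower (7.04% and 6.76% of all genes in the same fit), and without Thoc5 replicate 1 they were 1 and 0 (6.46% and 6.75%).

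The other tested Hox genes had no unadjusted p under 0.05 in any comparison. Hoxa7, a trunk gene detected on all arrays, had levels of -1.27 and -1.20, -1.10 and -1.40, and -1.23 and -0.92 in the order NT, Thoc2 and Thoc5 siRNA. Hoxb9 had levels of -3.98 and -3.22, -4.06 and -3.78, and -3.70 and -3.45. A dimmer Hoxb9 probe, also detected on all arrays, had levels of -4.51 and -4.25, -3.14 and -3.92, and -4.52 and -4.57. Its Thoc2 siRNA arrays lay above all the others, which those of the brighter probe did not. Hoxc4 had levels of -1.10 and -2.80, -1.72 and -0.76, and -1.25 and -1.08, so that the NT arrays lay farther apart than the groups. Hoxc5 ran from -4.03 to -2.33 with the groups overlapping, and Hoxa4 from -5.28 to -3.93.

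Several dim members varied widely between replicates. Hoxc6, a thoracic gene, had levels of -4.46 and -5.33 (NT), -8.06 and -4.20 (Thoc2 siRNA) and -6.41 and -4.42 (Thoc5 siRNA), and its difference of -1.24 with Thoc2 siRNA had an SE of 1.48. Hoxa6 had levels of -5.27 and -3.43, -2.74 and -5.61, and -4.79 and -2.71. Hoxb4 had levels of -4.25 and -5.66, -3.25 and -3.83, and -3.81 and -6.58, and Hoxa13 of -6.24 and -5.17, -3.31 and -5.01, and -6.87 and -4.77. In each of these the span within some group was over 1 log2 unit. Hoxa10 (-6.13 to -4.82) and Hoxa11 (-6.11 to -4.27) were detected on both Thoc2 siRNA arrays and on 1 NT array.

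Among the 17 members left out of the tests, Hoxc10 was bright on a single array, at -2.43 on the first Thoc2 siRNA array against -8.17 to -5.68 elsewhere, and was also detected at -5.68 on the second Thoc5 siRNA array. Hoxd4 was detected on 1 array only, the first NT array (-2.99), against -7.52 to -5.71 on the others. Hoxd12 was at -4.16 on the second NT array, -5.54 on the first Thoc2 siRNA array and -3.48 on the second Thoc5 siRNA array, and was not detected on the other 3. Hoxd1 was detected on the first array of NT (-4.93) and of Thoc2 siRNA (-5.28) and on neither Thoc5 siRNA array (-6.97 and -7.00). Hoxb2, Hoxb3, Hoxb5, Hoxb8, Hoxc9, Hoxc12 and Hoxc13 were detected on 1 to 3 arrays.

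Of genes that feed retinoic acid to the Hox clusters, 17 were tested and 0 passed after adjustment over all genes. At an unadjusted p under 0.05, 2 were higher and 2 lower with Thoc2 siRNA (8.03% and 6.5% of all genes), and 2 were higher and 3 lower with Thoc5 siRNA (7.39% and 12%), so that the counts lay near the share of all genes. Rdh10, which makes retinaldehyde from retinol, had levels of -3.31 and -3.21 (NT), -1.74 and -1.63 (Thoc2 siRNA) and -1.54 and -1.69 (Thoc5 siRNA). Its difference was 1.57 ± 0.15 and 1.64 ± 0.15 (adjusted p 0.211 and 0.101). Aldh1a3, which oxidises retinaldehyde to retinoic acid, stood at 0.74 and 1.13. Crabp1, a binding protein of retinoic acid, was lower (-1.33 and -1.55). Over this list the median difference was 0.09 with Thoc2 and -0.13 with Thoc5 siRNA.

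Polycomb and Trithorax genes, which hold Hox chromatin off or on, gave 5 higher and 0 lower of 38 tested with Thoc2 siRNA (8.03% and 6.5% of all genes) and 4 higher and 2 lower with Thoc5 siRNA (7.39% and 12%) at an unadjusted p under 0.05, with 0 after adjustment. Their medians were -0.005 and 0.02. Bmi1, a core subunit of Polycomb repressive complex 1, had levels of -4.06 and -3.91 (NT), -3.32 and -3.38 (Thoc2 siRNA) and -2.95 and -2.99 (Thoc5 siRNA), with differences of 0.64 ± 0.14 and 1.01 ± 0.14. Cbx8, a reader of the Polycomb histone mark, stood at 0.86 and 0.65. Kmt2a, a histone methyltransferase that keeps Hox genes on, stood at 0.61 with Thoc2 siRNA and Kdm2b, which brings a Polycomb complex to CpG islands, at 0.73 with Thoc5 siRNA. The 2 lower with Thoc5 siRNA were Phc1 (-0.44 ± 0.15) and Cbx2 (-0.44 ± 0.15), both of Polycomb repressive complex 1. The same shares of all genes stand beside the counts of the remaining lists, of which 0 genes passed after adjustment. Of the other Hox regulators 2 of 11 were higher with Thoc2 siRNA, Cdx2 (0.97 ± 0.30) and Kat6a (0.70 ± 0.24), and 1 was lower with Thoc5 siRNA, Fgf8 (-0.67 ± 0.16). Of other TALE and near-Hox homeobox genes 3 of 18 were higher with Thoc2 siRNA, Irx2 (1.10 ± 0.20), Evx1 (1.08 ± 0.25), which lies beside the HoxA cluster, and Gbx1 (0.65 ± 0.17). With Thoc5 siRNA Irx2 was higher (1.20 ± 0.20) and Meox1 (-1.48 ± 0.27), Tgif2 and Pknox1 were lower.

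The promoters of the members named most often are shown for the binding motifs of these families, from 250 bases before to 50 after the start, taken from RefSeq on GRCm38.p6. The table held 27 promoters of 25 of the 43 members. The letters searched on both strands were TGACAG (the Meis core, in 19.2% of all 32851 promoters of the same length), TGATTNAT (a Hox-Pbx composite, 3.22%), AGGTCA (a half-site of retinoic acid receptors, 16.3%) and TATAAA (13.6%). They occurred in 2, 2, 7 and 4 of the 27 member promoters, and the median CpG count was 15 against 7 over all promoters. Capitals mark matches on either strand. The Hoxa2 window held the Hox-Pbx composite and the Meis core, the Hoxa3 window the Meis core, and those of Hoxd3 and Hoxd10 the receptor half-site; that of Meis1 held none of the 4. A match is a description of the letters and not of binding.
Hoxa2 promoter, chr6:52164782-52165081, minus strand: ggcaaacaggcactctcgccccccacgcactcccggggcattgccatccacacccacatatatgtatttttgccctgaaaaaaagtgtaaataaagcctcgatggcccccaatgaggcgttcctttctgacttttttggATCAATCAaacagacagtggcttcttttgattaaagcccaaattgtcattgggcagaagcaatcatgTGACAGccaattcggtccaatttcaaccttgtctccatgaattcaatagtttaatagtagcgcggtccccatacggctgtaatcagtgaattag
Hoxa3 promoter, chr6:52213018-52213317, minus strand: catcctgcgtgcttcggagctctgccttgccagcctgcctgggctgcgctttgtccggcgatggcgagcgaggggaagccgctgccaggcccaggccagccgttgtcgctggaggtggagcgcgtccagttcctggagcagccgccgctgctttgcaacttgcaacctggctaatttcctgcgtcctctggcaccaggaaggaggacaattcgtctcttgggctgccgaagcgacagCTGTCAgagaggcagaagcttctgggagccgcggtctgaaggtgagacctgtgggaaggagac
Hoxd3 promoter, chr2:74711743-74712042, plus strand: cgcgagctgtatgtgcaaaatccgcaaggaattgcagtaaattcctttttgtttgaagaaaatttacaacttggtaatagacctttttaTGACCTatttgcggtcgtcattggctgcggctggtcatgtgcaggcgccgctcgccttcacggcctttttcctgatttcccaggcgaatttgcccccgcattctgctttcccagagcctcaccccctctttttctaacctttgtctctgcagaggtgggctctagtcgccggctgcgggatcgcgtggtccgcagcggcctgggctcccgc
Hoxd10 promoter, chr2:74691641-74691940, plus strand: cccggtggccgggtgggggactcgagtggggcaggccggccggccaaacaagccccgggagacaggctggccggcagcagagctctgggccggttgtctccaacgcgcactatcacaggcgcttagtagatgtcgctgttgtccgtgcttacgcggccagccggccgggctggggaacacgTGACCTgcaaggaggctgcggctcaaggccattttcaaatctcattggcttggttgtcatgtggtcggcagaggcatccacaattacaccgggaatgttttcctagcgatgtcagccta
Meis1 promoter, chr11:19018920-19019219, minus strand: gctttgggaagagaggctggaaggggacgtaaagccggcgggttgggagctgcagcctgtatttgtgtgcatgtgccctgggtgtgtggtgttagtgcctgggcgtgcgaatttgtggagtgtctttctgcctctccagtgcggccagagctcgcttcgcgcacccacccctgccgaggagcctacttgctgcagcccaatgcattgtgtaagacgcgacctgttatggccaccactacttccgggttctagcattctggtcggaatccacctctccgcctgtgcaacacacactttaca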

How the data were processed

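The 6 single-colour Agilent arrays were deposited as scanner files. Per the file headers, their processed signal is a background-subtracted, spatially detrended intensity, and a deposited flag of 0 or 1 marks spots well above background. Headers name Feature Extraction 9.5.3.1 and the submitters' processing notes 11.0. Deposited series values, on a log2 scale per their values, share their quantiles across arrays and were an alternative only. Each array's 75th percentile was subtracted from its log2 processed signals, without control and outlier spots; repeat spots were averaged and the brightest probe stood for each gene name. Of 61 member probes, the accession of 53 led to the same current symbol and 8 were not in the table (GRCm38.p6, used for names and promoters; probe coordinates are mm7). Tested genes (19479, 342 of them missing on some array; no member was) had to be well above background throughout some group.

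The fit used R 4.3.3, limma 3.58.1 (lmFit and eBayes) and data.table (1.17.8) on all 6 arrays, with 3 residual and 1.49 prior degrees of freedom and Benjamini-Hochberg adjustment over all genes; it was tested on simulated data. All tests are two-sided, and the smallest p of an exact permutation test with 2 arrays a group is 0.333. Named genes were Meis, Pbx, members well above background on both arrays of a group, and members with an unadjusted p under 0.05. The members and the gene lists were chosen with earlier results of these data known; other genes shown in the promoter and probe paragraphs were chosen after their values were seen. The 6 arrays lay on 4 slides, of which 1 held arrays of NT and Thoc2 siRNA and another arrays of NT and Thoc5 siRNA. Alternatives were other background corrections, normalizations, filters and variance models, slide or replicate as a block, and each array left out. A few genes are neither named nor drawn. The number of arrays limits the precision.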

Additional observations from a re-analysis of the deposited data

Results flagged for a closer look

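Each member was represented by its brightest probe. Among the other probes of members, 6 reported here were not well above background on either NT array and were well above it on an siRNA array. On the first Thoc2 siRNA array these were probes of Meis1 (A_52_P670612, level -2.69; highest NT level -7.82), Hoxa13 (A_52_P71789, -3.99; -5.77) and Hoxc10 (A_52_P351859, -4.03; -5.78). On the same array they were also probes of Hoxd13 (A_51_P284571, -4.94; -7.17) and Pbx3 (A_52_P140177, -5.82; -6.91). A second Pbx3 probe (A_52_P406028) was at -2.94 on the first Thoc5 siRNA array, with a highest NT level of -8.03. For 4 of the 6 only 1 siRNA array was above background, and the Meis1 and Hoxd13 probes were above it on 2. The first Thoc2 siRNA array also detected the largest share of all genes (79.04%) and had the most outlier spots (880). The share of all probes with this pattern was not counted, so nothing is read from the number of member probes.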

How the results depend on the processing

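Of the other settings, left-out arrays included, 18 gave an adjusted p for Thoc2 against NT, 17 each for Thoc5 against NT and against Thoc2, and 16 for both siRNAs against NT, and in these 0 members passed. Over all genes, trend and robust variances called 3 (Thoc2 against NT), 662 (Thoc5) and 639 (both), and testing only genes detected on all 6 arrays called 547 (Thoc5) and 464 (both), against 0 as designed. The members' median was 0.925 (Thoc2 against NT), 0.935 (Thoc5) and 0.995 (both) with normexp, where the medians of all genes were 0.298, 0.249 and 0.276. For Thoc5 against Thoc2 siRNA it was 0.139 with quantile normalization and 0.145 with the deposited series table (all genes, -0.015 and -0.014). Normexp turned the Thoc5 difference of Hoxd3 (0.851) and Hoxb7 (0.207); the cause was not tested. With a looser detection flag (gIsPosAndSignif) 29 members were on all 6 arrays. Leaving out 1 array gave medians of 0.263 to 0.437 (Thoc2), 0.007 to 0.287 (Thoc5), -0.389 to -0.129 (Thoc5 against Thoc2) and 0.163 to 0.506 (both), and 13 to 15 members on all arrays. No share of all genes stands beside the 29 or the 13 to 15 members, so nothing is read from these counts. Replicate numbers did not pair the arrays (correlations of same-numbered deviations -0.2, 0.144 and 0.217); a replicate block gave 4 higher and 0 lower members with Thoc2 (9.16% and 5.21% of all genes) and 4 and 1 with Thoc5 siRNA (7.18% and 9.71%) at an unadjusted p under 0.05, and 0 past adjustment. Crossed numbers, added after seeing the data, gave 3 and 0 with Thoc2 siRNA (5.69% and 3.67%). Probes near background limit the dim members to bounds.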
